A study of Homo sapiens with 10 samples.

Results

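The genes described here encode the machinery that brings nuclear-encoded proteins into mitochondria and folds them there. They were chosen by symbol as components of the TOM, TIM and SAM complexes, the import motor, the processing peptidases and the matrix chaperones, and 39 such genes were found among the 63677 Ensembl gene identifiers counted in each library. RS4;11 is an established BCP-ALL line, that is, of acute lymphoblastic leukemia arising from B cell precursors, and venetoclax (VEN) is a small-molecule inhibitor of the anti-apoptotic protein BCL-2. From 1 parental RS4;11 line, 5 VEN-insensitive (VENins) lines had been selected over 8 months by stepwise increases of VEN up to 100 nM, while 5 VEN-sensitive (VENsens) lines received the solvent DMSO alongside them. The study kept VENins lines under VEN throughout and VENsens lines without it, and washed VEN off before each analysis. Drug exposure and acquired insensitivity therefore cannot be told apart in this comparison. A single RNA library per line was sequenced, so that a replicate is a separately grown line, and the comparison asks how transcript levels of the import genes differed between the conditions. Libraries held 20631907 to 28323643 reads counted on genes.

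Nearly all mitochondrial proteins are made in the cytosol and enter through the TOM complex of the outer membrane. From there, precursors with a cleavable presequence are passed to the TIM23 complex and pulled into the matrix by an ATP-driven motor, carrier proteins travel with small TIM chaperones to the TIM22 complex, barrel proteins are inserted by the SAM complex, and small cysteine-rich proteins are trapped in the intermembrane space by a disulfide relay. In the matrix, presequences are cut off by peptidases and the new proteins are folded by chaperonins, a supply route on which the respiratory chain and the mitochondrial ribosome depend.

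The libraries carried the markers of B cell precursors, as labelled. VPREB1 and IGLL1, which form the surrogate light chain of the pre-B cell receptor, were at 548 to 669 and 609.8 to 899 CPM (the counts-per-million scale), and the B lineage factor EBF1 was at 255 to 319 CPM. Of the T cell markers found, CD3E was highest at no more than 1.04 CPM, and among myeloid markers only CSF1R (6.15 to 11.5 CPM) exceeded a mean of 1 CPM. CSF1R averaged 8.77 ± 1.48 CPM (SD) over the VENsens and 10.2 ± 0.889 CPM over the VENins lines, for a log2 fold change of 0.23 ± 0.10 (SE; edgeR's quasi-likelihood test, adjusted p = 0.261). The 5 myeloid markers summed to 10.1, 7.41, 10.9, 10.6 and 10.5 CPM in VENsens lines 1 to 5 and 11.0, 10.1, 10.7, 11.7 and 12.6 CPM in VENins lines 1 to 5, with MPO, which defines myeloid cells, at no more than 0.432 CPM, and their part in the results was not tested. COL1A1, a collagen of stromal cells, was at 1.93 to 3.34 CPM in every library. The erythroid HBB had counts only in VENsens line 2 (0.0484 CPM), and the erythroid HBA1 and the epithelial EPCAM and KRT18 were at 0 throughout. PAX5, the transcription factor that fixes B cell identity, was called and fell in VENins lines, with a log2 fold change of -0.31 ± 0.05 (SE; edgeR's quasi-likelihood test, adjusted p = 0.0272). As each library is bulk RNA, fewer cells of a type and less RNA per cell cannot be told apart. VENsens line 2 and VENins line 5 stood apart from the other lines in many of the import genes, and values without each of them follow the account of the roles.

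Import genes were on the whole slightly higher in VENins lines, and no single one was called. Of the 39 genes, 37 passed the filter on low counts and entered edgeR's quasi-likelihood test, fitted on all 16756 genes that passed. TOMM6, a small subunit of the TOM complex, and TIMM23, the channel of the presequence translocase, were listed at 0 in all 10 libraries, where 3 counts would correspond to 0.106 to 0.145 CPM. All of the exon sequence of TOMM6 is shared with the overlapping genes USP49 and AL365205.1, and TIMM23 has a near-identical copy, TIMM23B, which was also at 0. The count files hold reads that overlap several genes in a class of their own, 3.69% to 3.98% of the reads in each library, and reads of too low alignment quality in another, 24.6% to 26.2%, so that neither was counted on a gene. Which genes these reads came from is not recorded, and their part in the zeros was not tested. At an adjusted p under 0.05, 0 of the 37 were called, against 0.197% of all tested genes. At an unadjusted p under 0.05, 6 import genes were higher in VENins lines, which is 16.2% of those tested against 7.79% of all tested genes, and 0 were lower, against 8.38%. The log2 fold changes of the import genes ran from -0.10 to 0.21 with a median of 0.07, while the median over all tested genes was 0.00348. Of the 37, 28 were above 0, a share of 75.7% against 51.1% of all tested genes. Lines of the same number were taken as pairs, after the paired analysis of the study's methods, and 7 import genes (TOMM5, TOMM34, SAMM50, MTX2, CHCHD4, TIMM9 and TIMM17A) were higher in VENins lines in all 5 pairs, 18.9% against 7.61% of all tested genes. Of all import genes only TOMM20 was higher in 0 of 5 pairs, which held for 6.66% of all tested genes. With no pairs in the model, edgeR called 0 import genes against 0.889% of all tested genes, and DESeq2 called 2, TIMM9 and DNAJC19, 5.41% against 4.41%.

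**Figure D1:**
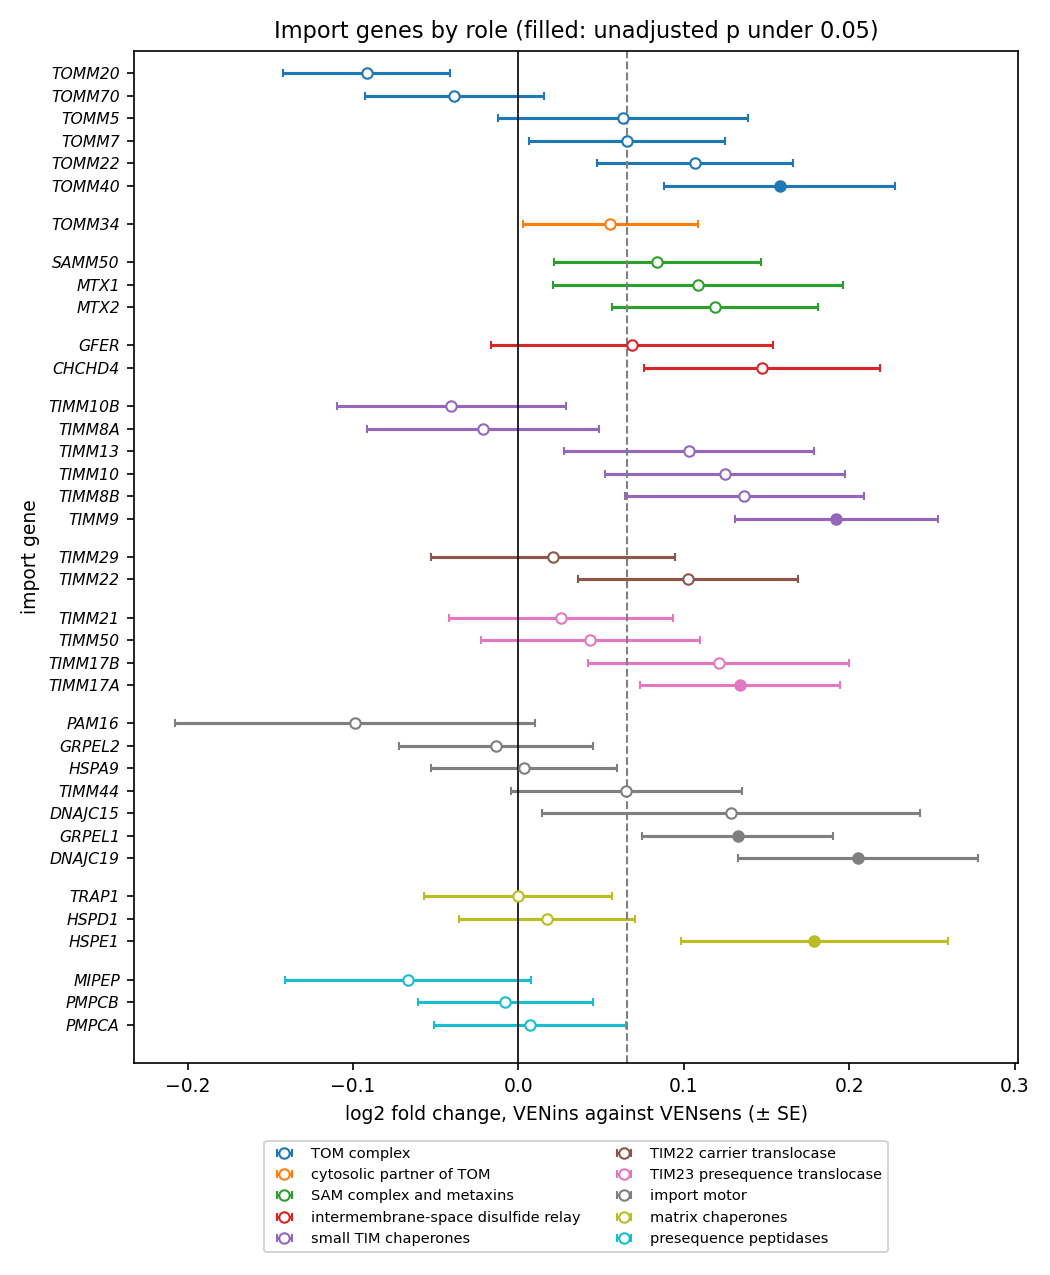
Log2 fold change between VENins and VENsens lines for the 37 tested import genes, grouped by role, with standard errors derived from edgeR's F statistic as bars. The 6 genes with an unadjusted p under 0.05 are filled, the dashed line marks the median of 0.07, and 28 genes lie to the right of 0.

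The import genes spanned a wide range of levels, which are compared between genes here as CPM per kilobase of exon (RPKM). Averaged over the 10 libraries, the highest RPKM was that of HSPD1, the chaperonin of the matrix, at 184, followed by the outer membrane receptor TOMM20 at 127 and the motor ATPase HSPA9, also called mortalin, at 69.9. The lowest RPKM among tested genes was that of DNAJC15, a J protein of the motor, at 1.27. HSPE1, the lid of the chaperonin, stood at an RPKM of only 18.2 although its product works together with that of HSPD1. Processed pseudogenes of HSPE1 took up 52.0% of the counts on the gene and these copies together, and 23.9% of its exon sequence is shared with HSPD1 and with the readthrough gene HSPE1-MOB4. For DNAJC19 the pseudogene share was 62.6%, for HSPD1 25.2% and for HSPA9 21.6%, so the levels of these genes are uncertain. The same holds for MTX1, GFER, TIMM8B, TIMM9, TIMM13, PAM16 and TRAP1, which like HSPE1 share over 20% of their exon sequence with overlapping genes. For PAM16 the overlapping gene is the readthrough CORO7-PAM16 on its own strand, and reads from genes on opposite strands cannot be told apart either, since the library kit does not mark the strand.

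**Figure D2:**
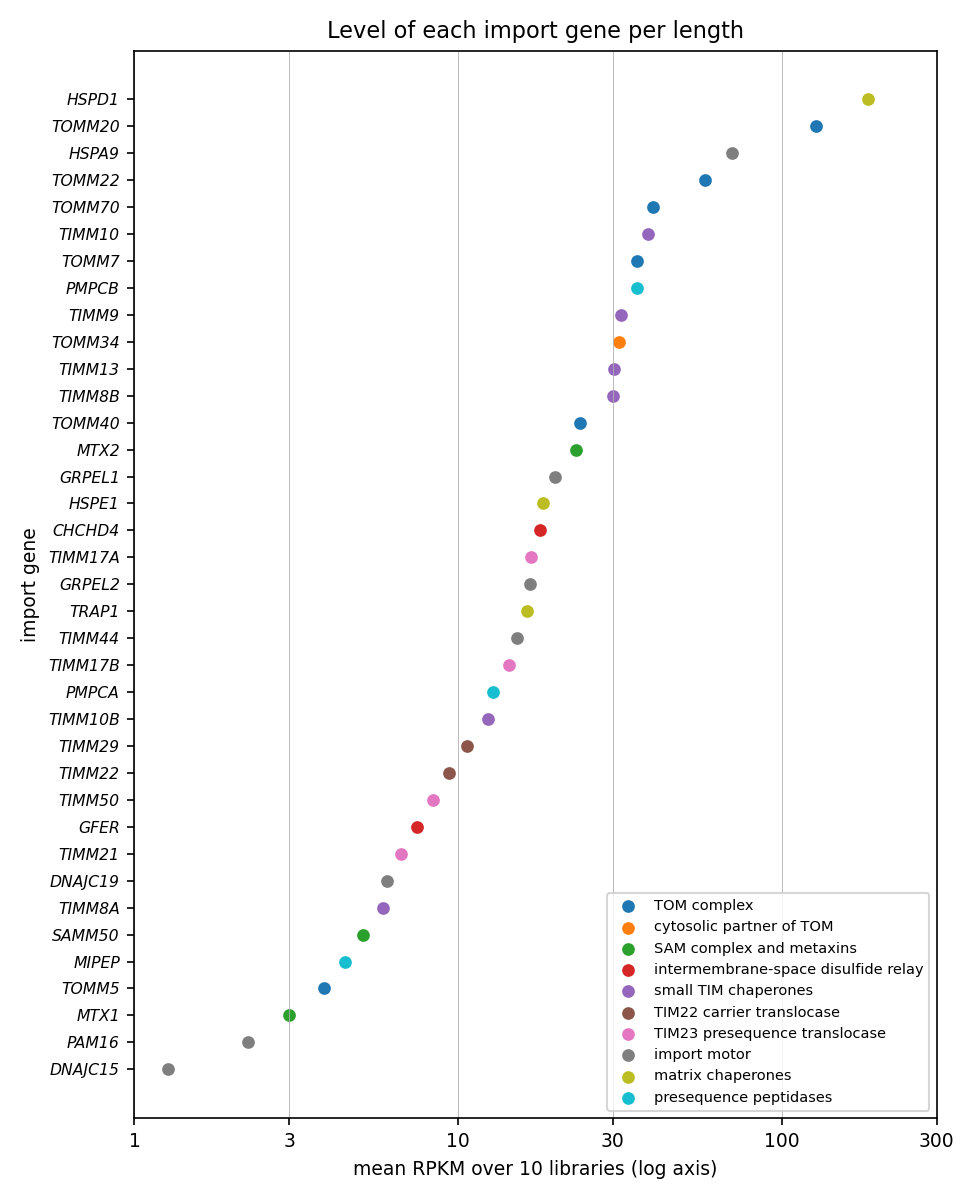
Mean RPKM over the 10 libraries (log axis) for the 37 tested import genes, ordered by level and coloured by role. Levels run from 1.27 for DNAJC15 to 184 for HSPD1.

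In the TOM complex, the entry gate of the outer membrane, 4 of the 6 tested genes were above 0, with a median log2 fold change of 0.06. TOMM40 (ENSG00000130204, chromosome 19, 44890569 to 44903689, in GENCODE 29 coordinates of GRCh38 as for the genes below) encodes the barrel that forms the pore. CPM of TOMM40 was 84.8, 63.1, 87.4, 82.0 and 87.1 in VENsens lines 1 to 5 and 84.9, 85.5, 83.0, 92.2 and 104 in VENins lines 1 to 5. VENsens line 2 lay below all other lines and VENins line 5 above them, and the remaining values of the groups overlapped, with a log2 fold change of 0.16 ± 0.07 (SE; edgeR's quasi-likelihood test, adjusted p = 0.280). Without VENsens line 2, in a fit with no pairs, its log2 fold change was 0.08, and without VENins line 5 it was 0.09. TOMM20 (ENSG00000173726, chromosome 1, 235109336 to 235128936) encodes a receptor for presequences and was lower in VENins lines. CPM of TOMM20 was 462, 484, 461, 455 and 463 in VENsens lines 1 to 5 and 442, 451, 443, 454 and 394 in VENins lines 1 to 5. Every VENins line was below every VENsens line, VENins line 5 the farthest, with a log2 fold change of -0.09 ± 0.05 (SE; edgeR's quasi-likelihood test, adjusted p = 0.391). In the same kind of fit without VENins line 5, it was -0.06. It was the only import gene whose groups did not overlap, 1 of 37 in the lower direction against 2.3% of all tested genes, and 0 did so in the higher direction, against 2.36%. TOMM22, the central receptor, had a log2 fold change of 0.11, TOMM70, a receptor for carrier proteins, one of -0.04, and the small subunits TOMM5 and TOMM7 stood at 0.06 and 0.07. TOMM34, a cytosolic protein that holds precursors near TOM, averaged 63.5 ± 2.83 CPM (SD) over the 5 VENsens lines and 65.9 ± 2.42 CPM over the 5 VENins lines, with a log2 fold change of 0.06, was among those higher in all pairs and was at 0.03 without VENsens line 2.

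All 3 genes of the SAM complex and its metaxin partners, which insert barrel proteins into the outer membrane, were above 0. MTX2 (ENSG00000128654, chromosome 2, 176269395 to 176338025), a metaxin on the cytosolic face, had the largest difference of them. CPM of MTX2 was 37.1, 35.3, 38.9, 39.1 and 39.9 in VENsens lines 1 to 5 and 37.5, 43.3, 42.0, 40.4 and 43.7 in VENins lines 1 to 5. VENins line 1 fell within the range of the VENsens lines and the other VENins lines lay above it, with a log2 fold change of 0.12 ± 0.06 (SE; edgeR's quasi-likelihood test, adjusted p = 0.365). MTX1 and the barrel SAMM50 had log2 fold changes of 0.11 and 0.08.

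The disulfide relay of the intermembrane space consists of the receptor CHCHD4, also named MIA40, and the oxidase GFER that reloads it. CHCHD4 (ENSG00000163528, chromosome 3, 14112077 to 14124870) was among the 7 genes higher in every pair. CPM of CHCHD4 was 30.5, 26.3, 32.2, 29.9 and 31.6 in VENsens lines 1 to 5 and 30.8, 34.7, 33.4, 35.3 and 32.4 in VENins lines 1 to 5. The lowest value was that of VENsens line 2, and the groups overlapped through VENins line 1, with a log2 fold change of 0.15 ± 0.07 (SE; edgeR's quasi-likelihood test, adjusted p = 0.327). GFER had a log2 fold change of 0.07 and overlapping groups (0.14 without VENsens line 1 and 0.02 without VENins line 5 in fits with no pairs). Proteins with twin cysteine motifs that this relay oxidizes, a list of 21 genes that are not import genes themselves, had 19 genes above 0, a median log2 fold change of 0.13 and 9 genes higher at an unadjusted p under 0.05 in edgeR's test, 42.9% against the 7.79% of all tested genes. The smallest p among them was that of CMC2, a cytochrome oxidase assembly protein, which averaged 23.9 ± 1.94 CPM (SD) over the 5 VENsens lines and 28.6 ± 2.19 CPM over the 5 VENins lines, for a log2 fold change of 0.26 ± 0.07 (SE; edgeR's quasi-likelihood test, adjusted p = 0.105). None of the 21 was called in this fit. The list was chosen with earlier results of these data known and includes respiratory chain subunits such as NDUFS5 and UQCRH. The study had already reported gene sets of the respiratory electron transport chain as higher in VENins lines. The shares of this list are therefore not independent of those earlier results. Without pair 2, the median of the list was 0.10 and 4 of the 21 genes were higher at that threshold, against 3.98% of all tested genes. Once length and GC trends had been removed, the median was 0.09 and 8 of the 21 genes were higher at that threshold, against 10.7%. In that fit 1 gene of the list was called, where 142 of all 16756 tested genes were. VENsens line 2 was the lowest library for several of these genes. Without it, a fit with no pairs gave a median of 0.13 and 9 of the 21 genes, against 7.64%. Without VENins line 5, such a fit gave 0.11 and 10 of the 21 genes, against 10.2%. It called 2 genes of the list, where 2.97% of all tested genes were called.

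Small TIM chaperones shield hydrophobic precursors on their way across the intermembrane space, and 4 of the 6 genes were above 0, with a median log2 fold change of 0.11. TIMM9 (ENSG00000100575, chromosome 14, 58408494 to 58427614), which forms a hexamer with TIMM10, had the smallest p of all import genes. CPM of TIMM9 was 45.0, 42.5, 48.0, 41.8 and 45.0 in VENsens lines 1 to 5 and 48.8, 54.5, 53.5, 50.6 and 46.7 in VENins lines 1 to 5. Lines 2 and 3 were the highest of the VENins group, VENins line 5 fell below VENsens line 3, and every VENins line exceeded the VENsens line of the same number, with a log2 fold change of 0.19 ± 0.06 (SE; edgeR's quasi-likelihood test, adjusted p = 0.156). Of the 25 fits run with different settings, edgeR or DESeq2 gave TIMM9 an unadjusted p under 0.05 in 25 and called it in 2. Its exons share 30.5% of their sequence with neighbouring genes, KIAA0586 among them. TIMM10, TIMM8B and TIMM13 had log2 fold changes of 0.12, 0.14 and 0.10 (TIMM13 0.03 without VENins line 5 in a fit with no pairs), and TIMM8A and TIMM10B were at -0.02 and -0.04. The carrier translocase that receives these precursors, TIMM22, showed a log2 fold change of 0.10 ± 0.07 (SE; edgeR's quasi-likelihood test, adjusted p = 0.475), and its partner TIMM29 one of 0.02.

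Of the presequence translocase in the inner membrane, all 4 tested genes were above 0. TIMM17A (ENSG00000134375, chromosome 1, 201955491 to 201970661), a channel subunit, had the largest difference. CPM of TIMM17A was 55.9, 52.8, 59.7, 55.3 and 56.1 in VENsens lines 1 to 5 and 61.7, 66.1, 61.4, 61.9 and 56.2 in VENins lines 1 to 5. VENins line 2 was the highest of all, 4 of the VENins lines exceeded every VENsens line, and VENins line 5 lay within the VENsens range, with a log2 fold change of 0.13 ± 0.06 (SE; edgeR's quasi-likelihood test, adjusted p = 0.291). Its paralog TIMM17B had a log2 fold change of 0.12, with VENins line 5 at 46.2 CPM and the remaining VENins lines at 35.9 to 36.7 CPM, and it was 0.04 without VENins line 5 and 0.05 without VENsens line 2 in fits with no pairs. The receptor TIMM50 and the linker TIMM21 were at 0.04 and 0.03, without VENsens line 2 at 0.000188 and 0.00287 in such a fit, and both were below 0 in some other fit.

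The import motor pulls precursors into the matrix through cycles of HSPA9, which J proteins stimulate and nucleotide exchange factors reset. DNAJC19 (ENSG00000205981, chromosome 3, 180983709 to 180989774), a J protein of the inner membrane, had the largest log2 fold change of all import genes. CPM of DNAJC19 was 20.3, 18.9, 21.6, 19.4 and 20.0 in VENsens lines 1 to 5 and 23.9, 24.3, 21.4, 23.0 and 22.9 in VENins lines 1 to 5. VENsens line 3 and VENins line 3 were nearly level and made the groups overlap, while the other VENins lines lay above all VENsens lines, with a log2 fold change of 0.21 ± 0.07 (SE; edgeR's quasi-likelihood test, adjusted p = 0.185). With the pseudogene counts added, its log2 fold change was 0.23 (adjusted p = 0.120 in the same test). GRPEL1 (ENSG00000109519, chromosome 4, 7058906 to 7068197) encodes an exchange factor of the motor. CPM of GRPEL1 was 73.3, 75.8, 82.6, 82.7 and 80.5 in VENsens lines 1 to 5 and 87.2, 88.8, 85.9, 91.5 and 79.7 in VENins lines 1 to 5. VENsens lines 1 and 2 were the lowest and VENins line 5 fell into the VENsens range, with a log2 fold change of 0.13 ± 0.06 (SE; edgeR's quasi-likelihood test, adjusted p = 0.275). Its paralog GRPEL2 stood at -0.01. HSPA9 itself averaged 577 ± 39.2 CPM (SD) over the 5 VENsens lines and 577 ± 29.9 CPM over the 5 VENins lines, a difference far below the spread between lines. The membrane anchor TIMM44 had a log2 fold change of 0.07, with VENins line 5 at 91.9 CPM and the other VENins lines at 68.9 to 76.8 CPM, and without VENins line 5 it was -0.00773 in a fit with no pairs. PAM16, a J-like regulator at no more than 6.65 CPM in any library, had a log2 fold change of -0.10 (-0.04 without VENsens line 1 in a fit with no pairs). DNAJC15 was at 0.13 (0.05 to 0.27 with a pair left out), with VENins line 1 the lowest of all libraries at 7.61 CPM.

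None of the genes of folding and processing in the matrix was called, and HSPE1 had the largest difference among them. HSPE1 (ENSG00000115541, chromosome 2, 197499994 to 197503457) lies head to head with HSPD1. CPM of HSPE1 was 35.2, 29.5, 37.8, 31.4 and 34.8 in VENsens lines 1 to 5 and 38.1, 43.8, 38.3, 37.0 and 34.0 in VENins lines 1 to 5. VENins line 2 was the highest and VENsens line 2 the lowest, and the groups overlapped because VENins lines 4 and 5 lay below VENsens line 3, with a log2 fold change of 0.18 ± 0.08 (SE; edgeR's quasi-likelihood test, adjusted p = 0.290). HSPD1 averaged 778 ± 37.0 CPM (SD) over the 5 VENsens lines and 788 ± 42.5 CPM over the 5 VENins lines, a log2 fold change of 0.02 that was below 0 in 5 of the other fits. TRAP1, a matrix chaperone of the HSP90 family, had a log2 fold change of -0.000222. The subunits of the main processing peptidase, PMPCA and PMPCB, were at 0.00682 and -0.00789, and the intermediate peptidase MIPEP was at -0.07, higher in VENins lines in only 1 of 5 pairs, and at -0.04 without VENsens line 1 in a fit with no pairs.

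**Figure D3:**
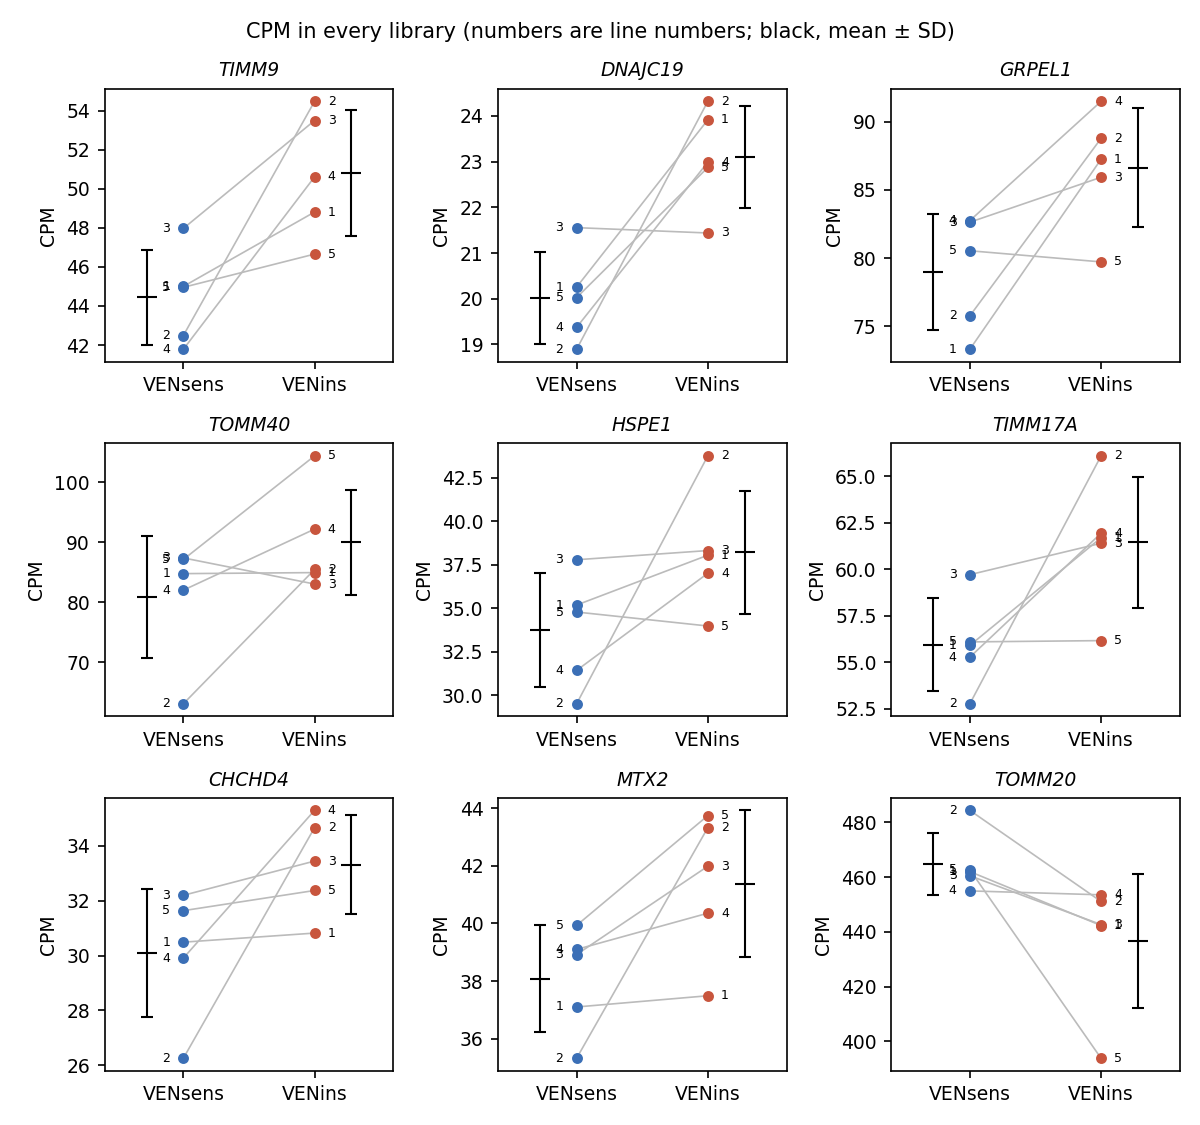
CPM in each of the 10 libraries for the 8 import genes with the smallest p and TOMM20 (vertical axes do not start at 0). Grey lines join lines of the same number, numbers name the line, and black bars give the mean and SD of each group; the groups overlap for every gene but TOMM20.

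In the paired edgeR fit, no gene was called in the lists of genes that work beside the import genes. Of 14 other import genes, 11 were tested, 7 were above 0 (51.1% of all tested genes were) and 2 were higher at an unadjusted p under 0.05, against 7.79% of all tested genes, with a median log2 fold change of 0.02 and the smallest p for ROMO1, a small inner membrane protein of TIM23 (0.24, adjusted p = 0.130 in edgeR's quasi-likelihood test). The lowest of the list was AGK at -0.21 (adjusted p = 0.330 in edgeR's quasi-likelihood test), higher in VENins lines in only 1 of 5 pairs. For the 8 cytosolic chaperones that deliver precursors the median was 0.09, and STIP1 and DNAJA1 were the 2 higher at that threshold, again against 7.79%. STIP1, a cochaperone which links HSP70 to HSP90, was at 185, 179, 205, 192 and 205 CPM in VENsens lines 1 to 5 and 222, 208, 214, 219 and 251 CPM in VENins lines 1 to 5. DNAJA1, a J protein of the cytosol, was at 243, 251, 261, 249.8 and 261 CPM in VENsens lines 1 to 5 and 308, 299, 278, 275 and 289 CPM in VENins lines 1 to 5. The groups of neither gene overlapped, as was so for 2.36% of all tested genes, with a log2 fold change of 0.19 ± 0.05 (SE; edgeR's quasi-likelihood test, adjusted p = 0.113) for DNAJA1. For STIP1 the difference came to a log2 fold change of 0.20 ± 0.05 (SE; edgeR's quasi-likelihood test, adjusted p = 0.0974). In the list of the mitochondrial unfolded protein response, 10 genes, 2 were higher and 1 lower at an unadjusted p under 0.05, against 7.79% and 8.38% of all tested genes, and the stress factor DDIT3 had the smallest p with a log2 fold change of 0.19 (adjusted p = 0.190 in edgeR's test). Of the import genes that this response is known to induce, HSPD1 and HSPA9 had log2 fold changes of 0.02 and 0.00329, and HSPE1 one of 0.18. The 8 transcription factors of nuclear mitochondrial genes included 0 genes at that threshold, GABPB1 having the smallest p with a log2 fold change of 0.10 (adjusted p = 0.385 in edgeR's test).

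Libraries differed in how the import genes deviated together. Averaged over the 37 genes, the deviation of log2 CPM from each gene's mean was -0.000687, -0.14, 0.03, -0.04 and -0.00700 in VENsens lines 1 to 5 and -0.02, 0.04, 0.02, 0.07 and 0.05 in VENins lines 1 to 5. VENsens line 2 was the lowest and the groups overlapped, since VENsens line 3 exceeded VENins lines 1 and 3. In VENsens line 2, only 6 of the 37 genes were above their mean, against 32 in VENins line 4. By line pair, the median difference of the import genes was 0.00294, 0.19, 0.01, 0.08 and 0.05 for pairs 1 to 5, so that pair 2 gave the largest difference and pairs 1 and 3 almost none.

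Counts and values moved when libraries were left out. Without pair 2, edgeR's test gave 1 import gene higher at an unadjusted p under 0.05, TIMM9, 2.70% against 3.98% of all tested genes in that fit. Without pair 4 it gave 2, TIMM9 and DNAJC19, 5.41% against 6.99%. Both shares lay below those of all tested genes. Without pair 2, the log2 fold change was 0.08 for HSPE1, 0.09 for TIMM17A, 0.09 for CHCHD4 and 0.08 for MTX2. In fits with no pairs, 4 import genes were higher at that threshold without VENsens line 2 (TIMM9, TIMM17A, DNAJC19 and GRPEL1), 10.8% against 7.64% of all tested genes, and 7 without VENins line 5, 18.9% against 10.2%. TIMM9 was called in the latter (adjusted p = 0.0379 in edgeR's quasi-likelihood test), 1 of 37 import genes (2.70%) where 2.97% of all tested genes were called, a share at the background. The median log2 fold change of the import genes was 0.07 with all libraries in such a fit, 0.05 without VENsens line 2 and 0.05 without VENins line 5. Each omission moved 19 of the 37 genes by over 1.5 times or turned their sign, and 24 genes were moved by the one or the other. Over the omission of each of the 10 libraries in turn, only SAMM50, MTX2, CHCHD4, TIMM9, TIMM17A, DNAJC19, GRPEL1 and HSPE1 stayed within 1.5 times their value, and 29 genes did not in at least 1 omission. Without VENsens line 1, TIMM10B was at -0.10. Without VENins line 5, TIMM44, TIMM29, TRAP1 and PMPCA were below 0 and TIMM8A, GRPEL2 and PMPCB above it. Without VENsens line 2, HSPA9, HSPD1, TRAP1 and PMPCA were below 0 and PMPCB above it, and TOMM22, TIMM8B, TIMM10 and TIMM22 were at 0.07, 0.08, 0.07 and 0.06. The median of the small TIM chaperones was 0.06 without VENins line 5 and 0.07 without VENsens line 2, that of the presequence translocase 0.05 and 0.03, and that of the motor 0.02 and 0.04.

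**Figure D4:**
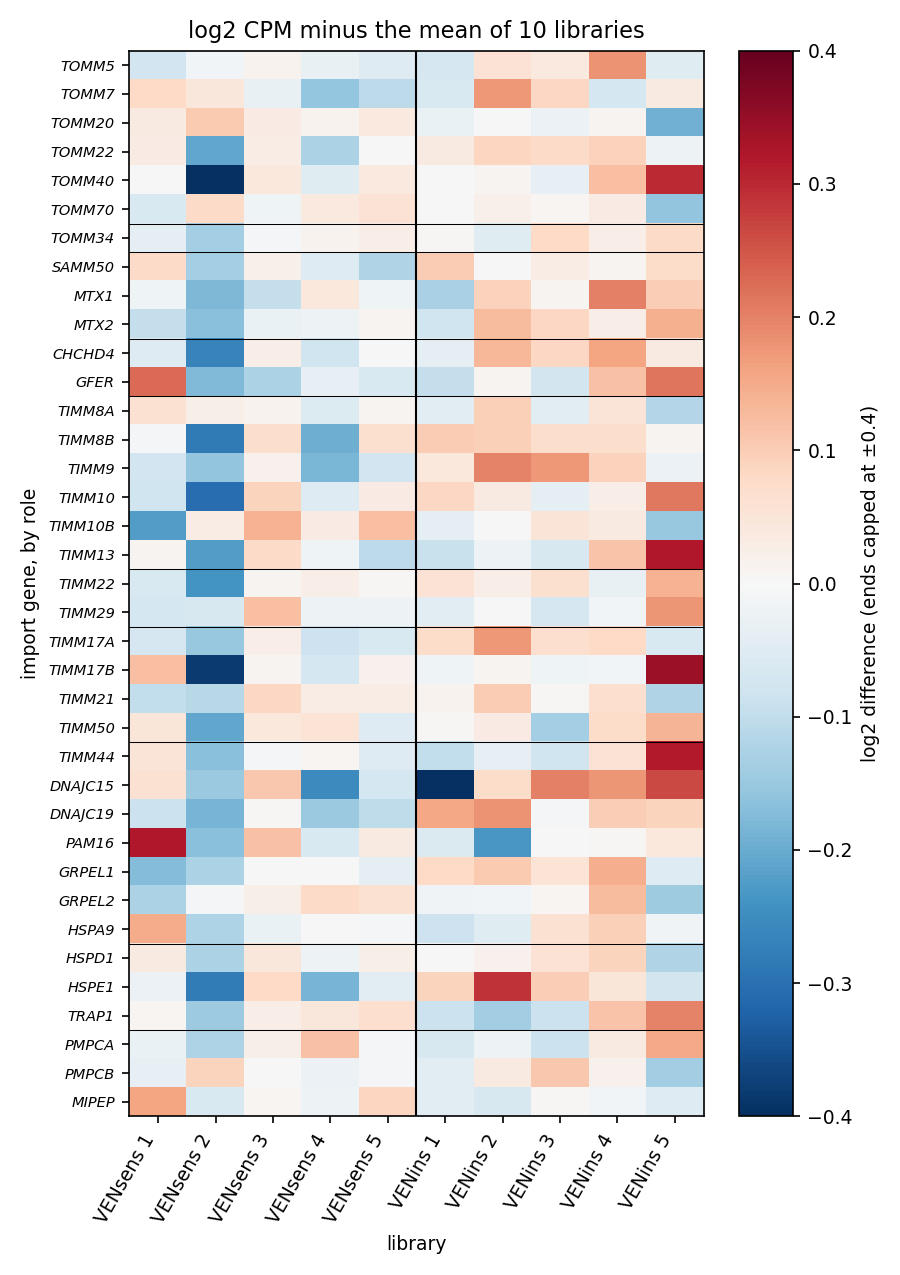
Log2 CPM of each tested import gene minus its mean over the 10 libraries, with genes in order of role and colours capped at ±0.4. VENsens line 2 is below the mean for most genes, and VENins line 5 stands apart in both directions.

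Transcript length moved with these differences. Among all tested genes, those with short transcripts were higher in VENins lines. With the 16312 of 16756 tested genes that had a known transcript length split into 4 near-equal groups by their longest transcript, the group up to 1562 bases had a median log2 fold change of 0.07, and the following groups had medians of 0.03, -0.00615 and -0.06. The 8 import genes of the shortest group had a median of 0.12, the 17 of the next one 0.07 and the 11 of the third 0.00682, and only DNAJC15 fell in the group of the longest. Taken per library, the median deviation of genes with short transcripts minus that of genes with long ones was -0.01, -0.13, 0.01, -0.04 and -0.03 in VENsens lines 1 to 5 and -0.00654, 0.06, 0.05, 0.03 and 0.09 in VENins lines 1 to 5. VENsens line 2 was the lowest in this measure too, and VENins line 5 the highest. VENins line 5 also had the largest shift towards GC-rich genes, 0.20 on the log2 scale. Once trends of the libraries on length and GC content had been removed, the median of the import genes was 0.05 and that of all tested genes 0.01. The median of the TOM complex was 0.03 in this fit. There, TOMM7 had a log2 fold change of 0.01 in place of 0.07, and TOMM40 had one of 0.18, TIMM9 0.14, DNAJC19 0.15 and TOMM20 -0.10. At an unadjusted p under 0.05 in that fit, 6 import genes were higher (TOMM40, TIMM9, TIMM22, TIMM17A, DNAJC19 and GRPEL1), 16.2% against 10.7% of all tested genes. Only 1, TOMM20, was lower, 2.70% against 7.65%. The part of transcript length in each gene's difference was not tested beyond this.

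**Figure D5:**
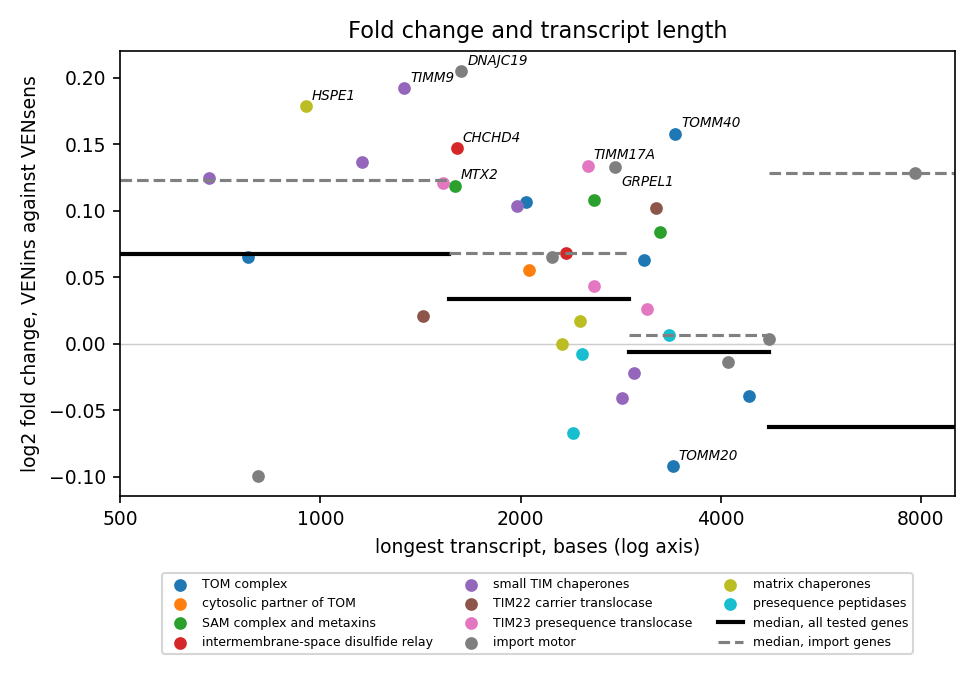
Log2 fold change against the length of the longest transcript (log axis) for the 37 tested import genes, coloured by role. Solid lines give the median of all tested genes and dashed lines that of the import genes in each of 4 groups by length, 0.07 against 0.12 in the shortest.

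Promoter sequence was searched for letters that transcription factors of mitochondrial genes are known to bind. RefSeq promoters (GRCh38.p14) were found for 36 of the 39 genes, and the 250 bases before each start were searched on both strands. The letters GCATGCG, the core bound by NRF1, were present for 4 of the 36 genes (TIMM9, CHCHD4, TOMM7 and PAM16), 11.1% against 4.16% of all 27305 gene symbols in the table. CCGGAAG, the letters bound by ETS factors such as GABPA, were present for 12, 33.3% against 10.2%. The symbols compared were not limited to genes expressed in RS4;11 or to protein-coding genes. Higher shares therefore cannot be read as particular to import genes. Among the other letters searched, AAGATGGC (YY1) was found for 0 genes against 1.64%, CACGTG (E-box) for 5, 13.9% against 7.73%, GAANNTTC (heat shock element) for 1, HSPD1, 2.78% against 7.05%, and CCAAT for 10, 27.8% against 37.0%. HSPD1 and HSPE1 lie on opposite strands of chromosome 2 with 104 bases between their starts, and the CACGTG in this stretch lies in both windows. Tested genes with CCGGAAG had log2 fold changes from -0.09 to 0.13 and those with CCAAT from -0.00789 to 0.16, and a link between letters and differences was not tested. The stretches below are the parts of the windows outside annotated exons, with matches in capitals. TIMM9 is shown for its NRF1 letters, which read both ways and so match on each strand with an overlap, TOMM40 and TIMM17A for their repeated CCAAT boxes, and GRPEL2 for its ETS letters.
TIMM9 (chr14:58427638-58427683, minus strand): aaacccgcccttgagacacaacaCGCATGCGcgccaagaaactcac
TOMM40 (chr19:44891004-44891219, plus strand): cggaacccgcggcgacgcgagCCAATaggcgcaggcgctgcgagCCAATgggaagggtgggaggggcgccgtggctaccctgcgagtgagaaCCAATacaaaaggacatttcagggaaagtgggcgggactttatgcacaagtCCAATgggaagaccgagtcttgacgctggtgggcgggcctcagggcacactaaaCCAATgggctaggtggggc
TIMM17A (chr1:201955253-201955490, plus strand): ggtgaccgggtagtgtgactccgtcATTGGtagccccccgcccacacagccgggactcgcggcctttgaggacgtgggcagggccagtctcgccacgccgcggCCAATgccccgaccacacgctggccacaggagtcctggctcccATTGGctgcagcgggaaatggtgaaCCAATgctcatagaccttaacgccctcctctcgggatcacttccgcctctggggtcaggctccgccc
GRPEL2 (chr5:149345334-149345429, plus strand): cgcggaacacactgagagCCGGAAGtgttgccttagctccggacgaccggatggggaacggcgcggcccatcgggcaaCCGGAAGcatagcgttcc
TOMM40 held 5 and TIMM17A 4 CCAAT matches, and at least 4 were present for 1.07% of all symbols.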

How the data were processed

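The unit of the files is raw read counts per Ensembl gene, which the authors deposited for 10 RNA libraries (5 VENins, 5 VENsens). The submitters' processing notes name bcl2fastq 2.20.0.422, Bowtie2 2.3.5.1, SAMtools 1.9, HTSeq 0.9.1 and the builds hg19 and GRCh37. Counts were scaled by TMM, filtered with filterByExpr (at least 10 counts in enough libraries) and tested with edgeR 4.0.16 (quasi-likelihood F test, line number and condition in the model, Benjamini-Hochberg over all tested genes, called at an adjusted p under 0.05) in R 4.3.3 with limma 3.58.1. The SE given with edgeR's test is the absolute log2 fold change divided by the square root of its F statistic. DESeq2 1.42.0 served as an alternative, and the scripts were tested on simulated data. Line numbers were used as pairs because the study's methods state a paired analysis. Libraries held 38491516 to 52960365 reads, and the classes of reads counted on no gene stayed out of library sizes and tests. Gene symbols, lengths, GC content and shared exon sequence came from GENCODE 29 by Ensembl identifier and promoters from RefSeq. Tables and plots used Python 3.11.15, numpy 2.4.6, pandas 2.3.3 and matplotlib 3.10.9.

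Values in every library were given for the 8 import genes with the smallest p and for those whose groups did not overlap, and named were the largest difference in each role, the highest and lowest RPKM and the smallest p in each list of other genes. Other genes in the text were chosen after their values were seen. The members and lists were chosen with earlier results of these data known.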

Additional observations from a re-analysis of the deposited data

Results flagged for a closer look

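In all, 76 groups of 5 lines (74 from the CPM of the 37 tested import genes and 2 from their mean deviation) were screened for a line far from the other 4 by Dixon's criterion, and 8 were found where chance alone would give about 1 in 20, or 3.8. Of these, 4 came from VENins line 5 and 3 from VENsens line 2. In VENins line 5, TOMM20 was at 393.9 CPM against 442.3 to 453.6 in the other VENins lines, TOMM70 at 192.9 against 215.0 to 220.1, TIMM29 at 22.39 against 18.92 to 19.78, and TIMM17B at 46.18 against 35.94 to 36.7. In VENsens line 2, TOMM20 was at 484.4 CPM against 455.0 to 462.7 in the other VENsens lines, TOMM40 at 63.08 against 82.01 to 87.38, and PMPCB at 182.6 against 168.0 to 171.5. In VENsens line 3, TIMM29 was at 21.55 CPM against 18.88 to 19.55. The causes of these values were not tested.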

How the results depend on the processing

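With the line number as a block, edgeR called 33 genes (6 higher, 27 lower), and with no replicate block 149. Lines of the same number did not deviate together (correlations of -0.103, 0.0280, -0.0170, 0.00937 and -0.0799 for pairs 1 to 5, and no line correlated best with its own number), so the pairing rests on the study's methods alone. DESeq2 called 217 with the block and 739 without it, 664 were called with no filter on low counts, and 142 (67 higher, 75 lower) once the trends on length and GC content had been removed. Leaving out a pair gave 6 to 331 genes. Leaving out a single library, with no block and added after seeing the data, gave 18 to 783, where all libraries gave 149. The counts were 45, 26, 178, 18 and 21 without VENsens lines 1 to 5, each in turn. They were 38, 24, 30, 783 and 502 without VENins lines 1 to 5.

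The number of import genes called was 0 throughout, except 2 in DESeq2 with no block (TIMM9, adjusted p = 0.0350, and DNAJC19, 0.0412, Benjamini-Hochberg) and 0 to 1 without a single library. Import genes higher at an unadjusted p under 0.05 numbered 5 to 7 under other settings, 1 to 8 without a pair and 3 to 8 without a library. Those lower numbered 0, or 1 with length and GC trends taken out and 0 to 1 without a library. Their median log2 fold change kept its direction at 0.05 to 0.07 under other settings and 0.05 to 0.10 without a pair or a library. HSPD1 reversed to -0.00146 with length and GC trends taken out, to -0.0143 without pair 2 (range without a pair up to 0.0577), -0.00589 without pair 4, -0.0103 without VENsens line 2 and -0.00230 without VENins line 4. Of 336 values for 14 named genes, 328 kept direction and call, and no scaling shifted the median of all genes by over 0.1. The cause of these shifts was not tested. All lines derive from 1 parental line, and no import gene passed the adjusted threshold in the paired fit.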
